A study of Mus musculus with 22 samples.

Results

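The 2 libraries compared here hold the start and the target of the reprogramming series: cultured mouse embryonic fibroblasts (MEF) and mouse embryonic stem cells (mESC). They are 2 of 22 RNA-seq libraries in one expression table of 12897 genes, and every gene of that table was compared between them. Both cell types are labelled wild type and carry the OG2 transgene, a green fluorescent protein reporter driven by regulatory sequence of Pou5f1. The mESC library is labelled P5 and a mixed background of 1/2 129SVJ, 3/8 C57B6 and 1/8 CBA. The MEF library is labelled P2 with the same 129SVJ and C57B6 shares, while its CBA share is written as 1/11. Each is a single library that the labels mark as a re-analysis, so neither has a replicate and no test between them was possible. Other fibroblasts of the series served as a yardstick: OG2 MEF at P2, of 1/2 129SVJ, 3/8 C57B6 and 1/8 CBA, transfected for 2 days with green fluorescent protein alone and collected on day 1, 3, 5 or 7, with 1 library for each day. Below they are called the GFP libraries.

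Embryonic stem cells grow from the inner cell mass of the blastocyst and keep the capacity to form every tissue of the embryo. That state is held by a circuit of transcription factors around Pou5f1 (also called Oct4), Sox2 and Nanog, which bind each other's genes, and the cells divide quickly as tight epithelial colonies. Embryonic fibroblasts are mesenchymal: they migrate as single cells, secrete collagen-rich matrix, pull on it with actin stress fibres and keep the Hox code of the body region they came from. Reprogramming has to replace one set of genes with the other.

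The deposited values are scores, whole numbers that the authors normalized so that all 22 libraries share the same distribution. The median score is 374 in each library, and scores of different genes cannot be compared as levels because they are not per unit of length. The 10 genes with the highest values in each library share a ceiling of 58542, so the size of a difference that involves the ceiling is not known. The measure of difference was log2(score + 20) in mESC minus log2(score + 20) in MEF. A gene was counted as higher in a library when this difference was at least 2-fold and its score there was at least 50. No fold is given for a gene listed at 0.

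By that rule 3053 genes (23.7%) were higher in mESC and 3069 genes (23.8%) were higher in MEF, and 6775 genes were neither. Each list count below is to be read beside these shares. The median difference over all genes was 0.04 on the log2 scale, with quartiles of -0.98 and 0.96. A 4-fold difference was reached by 1308 genes in the mESC direction and by 1582 in the MEF direction, and a 16-fold difference by 269 and 364 genes. Counted the same way, 47.5% of all genes differed between mESC and MEF, against 12.4% to 20.2% between MEF and each GFP library and 1.12% to 23.6% between pairs of GFP libraries. The distance between the stem cell and fibroblast libraries was thus larger than any distance among the 5 fibroblast libraries. Of the 3053 genes higher in mESC, 1873 were also counted as higher than in each of the 4 GFP libraries, and 25 were counted in the opposite direction against at least 1 of them. Of the 3069 genes higher in MEF, 1992 were also higher in each GFP library than in mESC, and 26 were opposite in at least 1. The MEF score lay within the range of the GFP libraries for 39.8% of the genes higher in MEF and above it for 41.8%. The MEF and mESC libraries were quantified with 1 version of the software and the GFP libraries with a later one, so a MEF value outside the GFP range also crosses that boundary, and culture and quantification cannot be told apart there. Every comparison of mESC with a GFP library, here and below, crosses the same boundary.

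**Figure D1:**
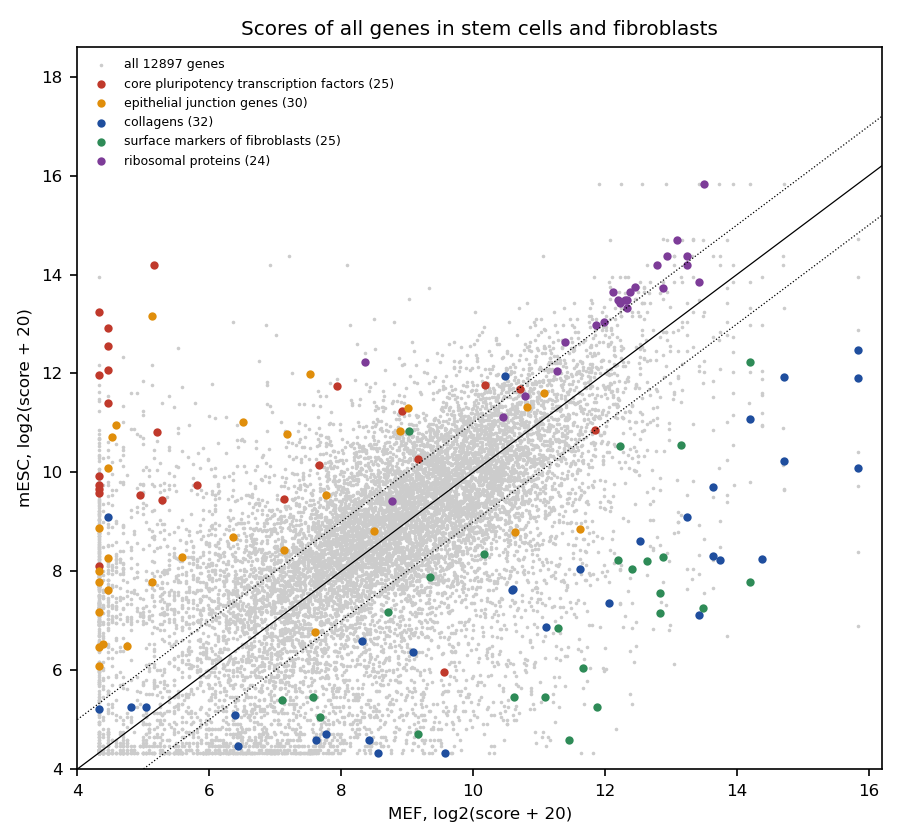
Scores of all 12897 genes in MEF (x axis) and mESC (y axis), both as log2(score + 20), with the solid line at equality and dotted lines at 2-fold. Coloured points are members of 5 gene lists: 22 of 25 core pluripotency factors and 23 of 30 junction genes were counted as higher in mESC, and 27 of 32 collagens and 24 of 25 fibroblast surface markers as higher in MEF.

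Defining markers were high in the library of the matching label. All 9 stem cell markers (Pou5f1, Nanog, Sox2, Zfp42, Esrrb, Tdgf1, Dppa5a, Cdh1 and Epcam) had scores of at least 1074 in mESC and of at most 15 in MEF, with summed scores of 58832 and 25. The 11 fibroblast markers summed to 184920 in MEF, 190874 to 221191 in the GFP libraries and 15004 in mESC. Col1a1 and Col1a2 stood at the ceiling of 58542 in MEF and the GFP libraries, so the fibroblast sums there are not exact. The highest scores of these markers in mESC were those of secreted proteins: Col1a1 scored 5672, Col3a1 scored 3888, Col1a2 scored 3812 and Postn scored 660 there. Twist2 was listed at 0 in mESC, and Pdgfra, Prrx1, Thy1, Lum, Pdgfrb and Dcn scored between 46 and 283. In a bulk sample, fewer cells of a type and less RNA per cell cannot be told apart, and the part of any feeder or differentiated cells in these mESC scores was not tested. Of the 5 macrophage markers 4 were in the table, with summed scores of 240 in mESC and 449 in MEF.

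The core pluripotency transcription factors were almost all higher in mESC. Of 25 factors, all in the table, 22 were higher in mESC, 1 was higher in MEF and 2 were neither, with a median difference of 4.59 beside 0.04 for all genes. Pou5f1, the POU-domain factor at the centre of the circuit, scored 9702 in mESC and was listed at 0 in MEF and in all 4 GFP libraries. Sox2, its HMG-box partner, scored 4260 in mESC, 2 in MEF and 0 to 11 in the GFP libraries. Nanog, a homeodomain factor, scored 7770 in mESC, 2 in MEF and 1 to 8 in the GFP libraries. The values leave no overlap between the stem cell library and any fibroblast library for these 3 genes. Esrrb, an orphan nuclear receptor of the naive state, scored 6009 against 2. Tfcp2l1, a grainyhead-family factor and the top gene of the list by difference, scored 18816 against 16, a difference of 9.03. Zfp42 (Rex1), a zinc-finger marker of undifferentiated cells, scored 2700 against 2. Sall4, Nr0b1, Zscan10, Tcl1, Prdm14 and Utf1, all regulators known from embryonic stem cells, scored 3997, 948, 840, 793, 751 and 254 in mESC and were each listed at 0 in MEF.

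Klf4, Klf2, Klf5 and Myc of the same list were also detected in fibroblasts. Klf4, one of the reprogramming factors, scored 3446 in mESC, 1140 in MEF and 306 to 1104 in the GFP libraries, a difference of 1.58 between mESC and MEF. Klf2 scored 3403 in mESC, 226 in MEF and 38 to 68 in the GFP libraries. Klf5 scored 1114 in mESC, 183 in MEF and 48 to 141 in the GFP libraries. All 3 factors were lower in every GFP library than in MEF, and the lowest GFP scores of Klf2 and Klf5 were below 50. Within the Myc pair the directions were opposite. Mycn, the family member of early embryonic cells, scored 834 in mESC and 36 in MEF. Myc scored 42 in mESC, 732 in MEF and 72 to 152 in the GFP libraries, and was the 1 factor of the list counted as higher in MEF. The GFP libraries lay between the 2 on Myc, and only 2 of those 4 were counted as higher than mESC. Stat3, the transcription factor that carries the LIF signal, scored 1839 in mESC and 3661 in MEF, a difference of -0.99 that did not reach 2-fold. Rest, a repressor of neuronal genes, scored 3272 and 1650.

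Promoter sequence was available for a subset of these genes: 10187 of the 12897 genes (79.0%) matched an entry of the RefSeq promoter table for GRCm38.p6, which spans 250 bases before to 50 bases after the start site. Both strands were searched. The composite element to which Sox2 and Pou5f1 bind together, written as CATTGT, any single base and ATGCAAA, occurred in 1 of the 10187 promoters, that of Nanog, 75 bases before the start. The octamer ATGCAAAT, the POU-factor element that overlaps the composite, occurred in 139 (1.36%), that of Zfp42 among them, 186 bases before the start. Its share was 1.42% among genes higher in mESC and 1.67% among genes higher in MEF. At a 16-fold difference the shares were 4% and 2.32%. The Nanog and Zfp42 promoters are printed because the composite and the octamer belong to factors that scored high in mESC and near 0 in MEF. Capitals mark the match, which is on the reverse strand in both and stands in each sequence as its complement read 5′ to 3′. The Nanog promoter is chr6:122707239-122707538 on the plus strand and the Zfp42 promoter is chr8:43306960-43307259 on the minus strand.
Nanog: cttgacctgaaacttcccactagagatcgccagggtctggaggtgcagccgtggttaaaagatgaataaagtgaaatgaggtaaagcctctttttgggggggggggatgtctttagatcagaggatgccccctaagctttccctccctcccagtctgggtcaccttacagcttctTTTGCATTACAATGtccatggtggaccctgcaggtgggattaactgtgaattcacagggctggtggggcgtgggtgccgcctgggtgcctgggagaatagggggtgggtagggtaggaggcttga
Zfp42: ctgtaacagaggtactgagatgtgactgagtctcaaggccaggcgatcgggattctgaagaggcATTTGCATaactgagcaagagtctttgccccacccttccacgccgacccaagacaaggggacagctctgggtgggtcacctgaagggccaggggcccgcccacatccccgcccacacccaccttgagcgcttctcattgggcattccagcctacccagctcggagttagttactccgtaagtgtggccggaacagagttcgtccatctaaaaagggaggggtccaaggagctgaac
A match describes these letters in this window and was not measured as binding.

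Other pluripotency-associated genes followed the same pattern. Of 39 such genes 38 were in the table, 35 were higher in mESC, all 35 also against every GFP library, and 18 were listed at 0 in MEF. Dppa5a, a small RNA-binding protein of early embryonic cells, scored 15764 in mESC and was listed at 0 in MEF and in all GFP libraries. L1td1, an RNA-binding protein derived from a LINE element, scored 3480 in mESC and was listed at 0 in MEF. Fgf4, the growth factor through which stem cells push one another towards commitment, scored 3124 and 0. Alpl, the alkaline phosphatase used as a colony stain, scored 5804 and 26. Trim71, a let-7-linked regulator of messenger RNA, scored 4094 and 133. Lin28a, which blocks let-7 maturation, scored only 196 in mESC and was listed at 0 in MEF. Syt11, a vesicle protein, was the 1 member counted as higher in MEF, with 164 in mESC and 720 in MEF. That call did not hold against every GFP library.

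**Figure D2:**
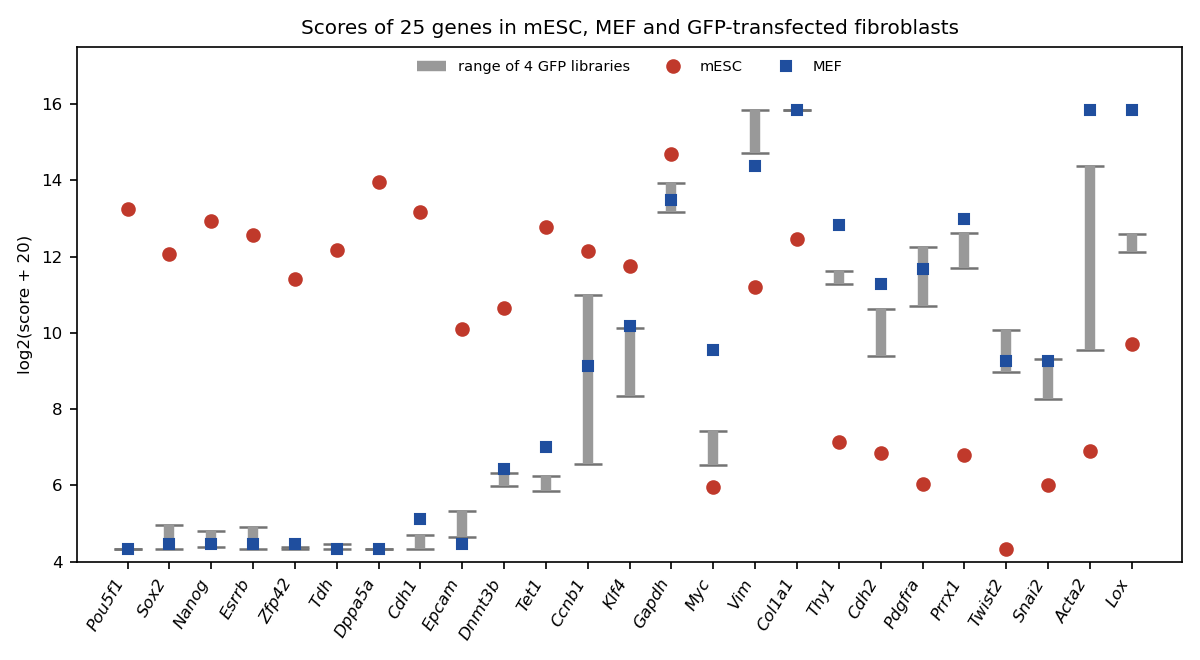
Scores of 25 genes as log2(score + 20): red circles are mESC, blue squares MEF and grey bars with end ticks the range of the 4 GFP libraries. The first 8 genes from Pou5f1 to Cdh1 score at most 15 in MEF and 2700 to 15764 in mESC, and from Myc to the right MEF is higher than mESC for each gene.

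Cell adhesion showed the epithelial character of one library and the mesenchymal character of the other. Of 32 epithelial junction genes 30 were in the table, 23 were higher in mESC and 2 were higher in MEF, with a median difference of 2.49. Cdh1 (E-cadherin), the adhesion molecule that holds epithelial colonies together, scored 9166 in mESC, 15 in MEF and 0 to 6 in the GFP libraries. Cdh2 (N-cadherin), its mesenchymal counterpart, scored 96 in mESC, 2478 in MEF and 657 to 1558 in the GFP libraries. Cdh11, the cadherin of fibroblasts and osteoblasts, scored 201 in mESC, 18782 in MEF and 2660 to 15778 in the GFP libraries. The cadherins thus exchanged places, and no GFP library reached the mESC score of Cdh1. Epcam, a surface adhesion protein, scored 1074 against 2. Cldn4 of the tight junction scored 1654 against 3, and Dsg2 of the desmosome scored 1955 against 4. The junction genes counted as higher in MEF were Gja1, a connexin of gap junctions, with 445 in mESC and 3132 in MEF, and Cdh3 (P-cadherin), with 423 and 1578. Cdh3 scored 111 to 400 in the GFP libraries, and none of the 4 was counted as higher than mESC.

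Epithelial regulators and keratins leaned towards mESC. Of 22 regulators and keratins 20 were in the table, 11 were higher in mESC and 2 in MEF, of which 11 and 0 held against every GFP library. Elf3, an ETS factor of epithelia, scored 2861 in mESC and was listed at 0 in MEF. Spint1, an inhibitor of membrane proteases, scored 1251 against 2, and St14 (matriptase), the protease it restrains, scored 1768 against 26. Krt19 scored 2 in mESC and 90 in MEF. The Epcam promoter, chr17:87635729-87636028 on the plus strand, is shown because it holds both orientations of the E-box CACCTG, the element read by Snai and Zeb repressors. The copies, in capitals, begin 187 and 19 bases before the start, and CACCTG on either strand occurred in 1790 of the 10187 promoters (17.6%). Binding was not measured, and an effect of these repressors on Epcam was not tested.
Epcam: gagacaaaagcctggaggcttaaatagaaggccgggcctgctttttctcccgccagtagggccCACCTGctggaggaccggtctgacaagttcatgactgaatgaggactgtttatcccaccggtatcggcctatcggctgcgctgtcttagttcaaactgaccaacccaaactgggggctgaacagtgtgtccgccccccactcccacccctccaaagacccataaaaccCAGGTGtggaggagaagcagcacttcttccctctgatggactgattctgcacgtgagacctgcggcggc

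The mesenchymal transition factors were the reverse image of the junction genes. Of 10 factors, all in the table, 9 were higher in MEF and in every GFP library than in mESC, none was higher in mESC, and the median difference was -4.17. Prrx1, a homeobox gene of limb mesenchyme, scored 92 in mESC and 8039 in MEF. Twist2 was listed at 0 in mESC and scored 593 in MEF and 481 to 1052 in the GFP libraries. Twist1 scored 30 against 920. Among the E-box repressors of Cdh1, Snai1 scored 69 against 460, Snai2 scored 44 against 592, Zeb1 scored 376 against 1488 and Zeb2 scored 50 against 1930. Foxc2 was listed at 0 in mESC and scored 325 in MEF, and Prrx2 scored 7 against 510. Tcf4, an E-protein, was the tenth factor and did not reach 2-fold, with 1007 and 1566. The GFP libraries spanned 715 to 3119 on Tcf4.

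Surface proteins and lineage factors of fibroblasts were almost all higher in MEF. Of 25 fibroblast surface markers, 24 were higher in MEF and 1 in mESC, with a median difference of -4.43. Thy1, a glycoprotein whose loss is an early step of reprogramming, scored 122 in mESC, 7298 in MEF and 2456 to 3147 in the GFP libraries. Cd44, the hyaluronan receptor, scored 134 against 11505. Pdgfra, a growth factor receptor of mesenchyme, scored 46 against 3242, and S100a4, a calcium-binding protein of fibroblasts, scored 4 against 2792. Itga11, a collagen receptor, scored 18 in mESC, 3736 in MEF and 111 to 292 in the GFP libraries, so its MEF value stood far above the other fibroblast libraries. Eng (endoglin), a coreceptor for TGF-beta, was the exception, with 1796 in mESC and 505 in MEF. Of 44 fibroblast lineage transcription factors 39 were in the table, with 32 higher in MEF and 2 in mESC. Nr2f2, a nuclear receptor of mesenchyme, scored 4 against 872, and Runx1 scored 21 against 1360. Osr2 scored 201 in mESC and 40 in MEF, but its GFP scores of 92 to 224 reached the mESC value.

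Surface markers of stem cells were less one-sided, with 7 of 12 higher in mESC and 2 in MEF, of which 4 and 1 held against every GFP library. Kit, the receptor for stem cell factor, scored 3102 in mESC and 8 in MEF. Pecam1, an adhesion molecule shared with endothelium, scored 2058 against 6. Icam1 scored 1535 against 132, but 2 of the 4 GFP libraries, which spanned 232 to 1229, were not counted as lower than mESC. Il6st (gp130), the signalling chain of the LIF receptor, scored 1354 in mESC and 7558 in MEF.

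Hox genes, which record position along the body axis, were present in fibroblasts and mostly near 0 in stem cells. The table holds only genes with a score of at least 101 in at least 1 library, so Hox genes that are low everywhere are not counted here. Of the 29 Hox genes in the table, 24 were higher in MEF, 2 were higher in mESC and 3 were neither, with a median difference of -2.29. Of the 24, 20 were also higher in every GFP library. Hoxc8 scored 15 in mESC and 490 in MEF, Hoxd8 scored 16 against 414, and Hoxb8 scored 10 against 381. Hoxb9 scored 334 in mESC, 1284 in MEF and 679 to 1052 in the GFP libraries, so it stood out for a mESC score near the table median. Hoxb2, Hoxb3, Hoxb5 and Hoxb6 were listed at 0 in mESC and scored 131, 78, 78 and 169 in MEF. Genes at the terminal end of 2 clusters departed from the pattern. Hoxb13, the terminal gene of the B cluster, scored 120 in mESC and was listed at 0 in all 5 fibroblast libraries. Hoxc13 scored 327 in mESC, 30 in MEF and 24 to 62 in the GFP libraries. Hoxc4 (92 and 126) and Hoxd9 (69 and 74) differed little.

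**Figure D3:**
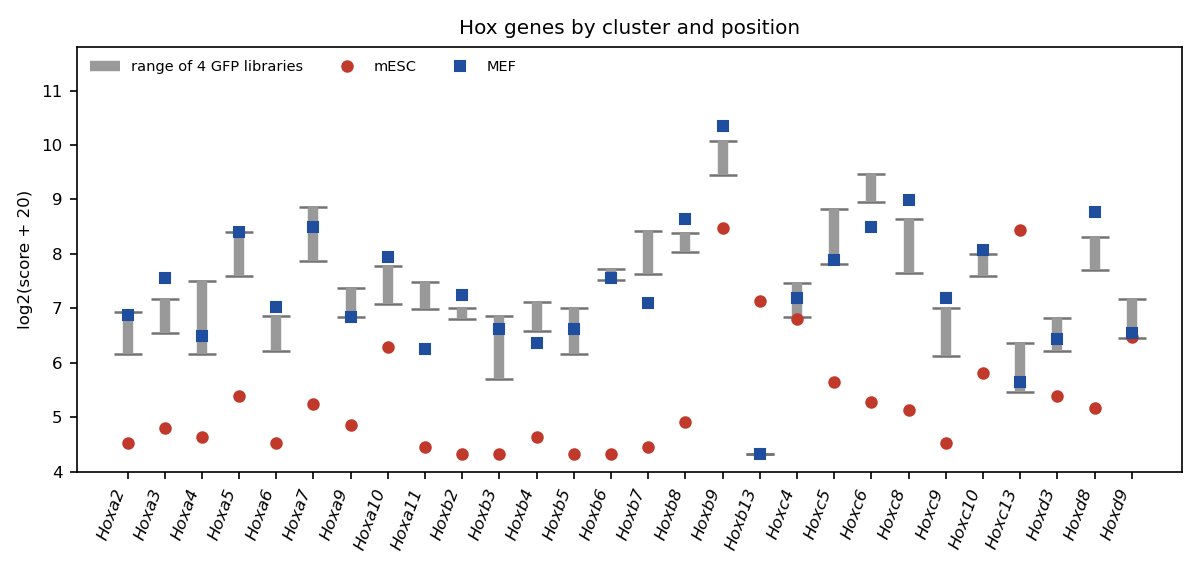
Scores of 28 Hox genes, ordered by cluster and number, as log2(score + 20): red circles are mESC, blue squares MEF and grey bars with end ticks the range of the 4 GFP libraries. mESC lies above MEF for Hoxb13 and Hoxc13 and below it for the other 26 genes shown.

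Most genes of the extracellular matrix were higher in MEF. Of the 32 collagen genes in the table, 27 were higher in MEF and 2 in mESC, of which 20 and 1 held against every GFP library. Of 42 matrix glycoproteins and proteoglycans, 41 were higher in MEF, 31 of them against every GFP library, and none in mESC. Col1a1 and Col1a2, the chains of type I collagen, stood at the ceiling of 58542 in MEF and in all 4 GFP libraries and scored 5672 and 3812 in mESC, so the size of those differences is not known. Col5a2, a fibril-regulating collagen, scored 1074 in mESC, 58542 in MEF and 18777 to 26738 in the GFP libraries. Col4a1 of basement membranes scored 285 in mESC, 21287 in MEF and 4686 to 8748 in the GFP libraries. Of the 2 collagens higher in mESC, Col9a2 scored 530 against 2 and held against every GFP library. Col18a1 scored 3944 in mESC and 1414 in MEF, but 2736 on day 1 and 8420 to 13644 on the later days of the GFP libraries, and was counted in the opposite direction against 3 of them. Eln (elastin) scored 4 in mESC, 2284 in MEF and 58 to 86 in the GFP libraries. Mgp, an inhibitor of calcification, scored 2 against 2185.

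Enzymes that build and cut the matrix were on the same side. All 25 collagen-modifying genes were in the table, 22 higher in MEF, 20 of them against every GFP library, and none in mESC. Lox, which crosslinks collagen and elastin, scored 824 in mESC, stood at the ceiling of 58542 in MEF and scored 4414 to 6161 in the GFP libraries. Its relatives Loxl1, Loxl2, Loxl3 and Loxl4 scored 97, 838, 66 and 14 in mESC and 3882, 15798, 3062 and 1543 in MEF. Of 30 matrix proteases and inhibitors 28 were in the table, with 23 higher in MEF and 1 in mESC, of which 18 and 0 held against every GFP library. Plau (urokinase) scored 7 against 1950. Basement membrane genes were divided, with 6 of 13 higher in mESC and 5 in MEF, of which 5 and 3 held against every GFP library. The laminin chains of early epithelium were on the mESC side: Lama1 scored 996 against 178 and Lama5 scored 6018 against 2144, each above every GFP library. Lama4 and Lama2, laminin chains of mesenchyme and muscle, were on the MEF side, with 101 against 3542 and 183 against 910. The 2 nidogens, which link laminin to collagen IV, went opposite ways: Nid2 scored 6184 in mESC and 1740 in MEF, and Nid1 scored 8022 and 21282.

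Contractile genes were almost all higher in MEF, several of them with high scores there and scores below 100 in mESC. All 31 were in the table, with 28 higher in MEF, 1 in mESC and a median difference of -3.64. Acta2, the smooth muscle actin of activated fibroblasts, scored 99 in mESC, stood at the ceiling in MEF and scored 732 to 21282 in the GFP libraries. Tagln (transgelin) scored 83 in mESC, 14722 in MEF and 363 to 4482 in the GFP libraries. Myl9, a regulatory myosin light chain, scored 50 in mESC, 8404 in MEF and 356 to 1536 in the GFP libraries. For each of these 3 genes MEF was above all GFP libraries, and all GFP libraries were above mESC. Cnn1 and Actg2 were listed at 0 in mESC, scored 3174 and 3577 in MEF and each scored 22 in the lowest GFP library, so only 2 of the 4 GFP libraries kept the call for each. Of the 28 calls, 17 held against every GFP library. Vim (vimentin), the intermediate filament of mesenchyme, scored 2344 in mESC, 21348 in MEF and 26751 to 58542 in the GFP libraries, so here MEF was the lowest of the fibroblasts. Csrp2, a LIM-domain protein, was the 1 member higher in mESC, with 814 against 320.

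Serum response factor reads the CArG box, 2 C, a run of 6 A or T, and 2 G. A CArG box on either strand occurred in the promoters of 3 of the 27 contractile genes with an entry (11.1%) and in 130 of all 10187 (1.28%). The Myl9 promoter is shown because it holds such a box, CCTAATAAGG in capitals, 161 bases before the start. It lies at chr2:156775214-156775513 on the plus strand.
Myl9: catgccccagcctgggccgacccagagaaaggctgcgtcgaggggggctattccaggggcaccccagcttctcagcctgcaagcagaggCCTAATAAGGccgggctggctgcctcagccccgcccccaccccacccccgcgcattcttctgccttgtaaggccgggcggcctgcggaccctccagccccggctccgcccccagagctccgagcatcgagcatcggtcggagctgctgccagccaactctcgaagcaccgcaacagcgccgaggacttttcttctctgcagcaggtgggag

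**Figure D4:**
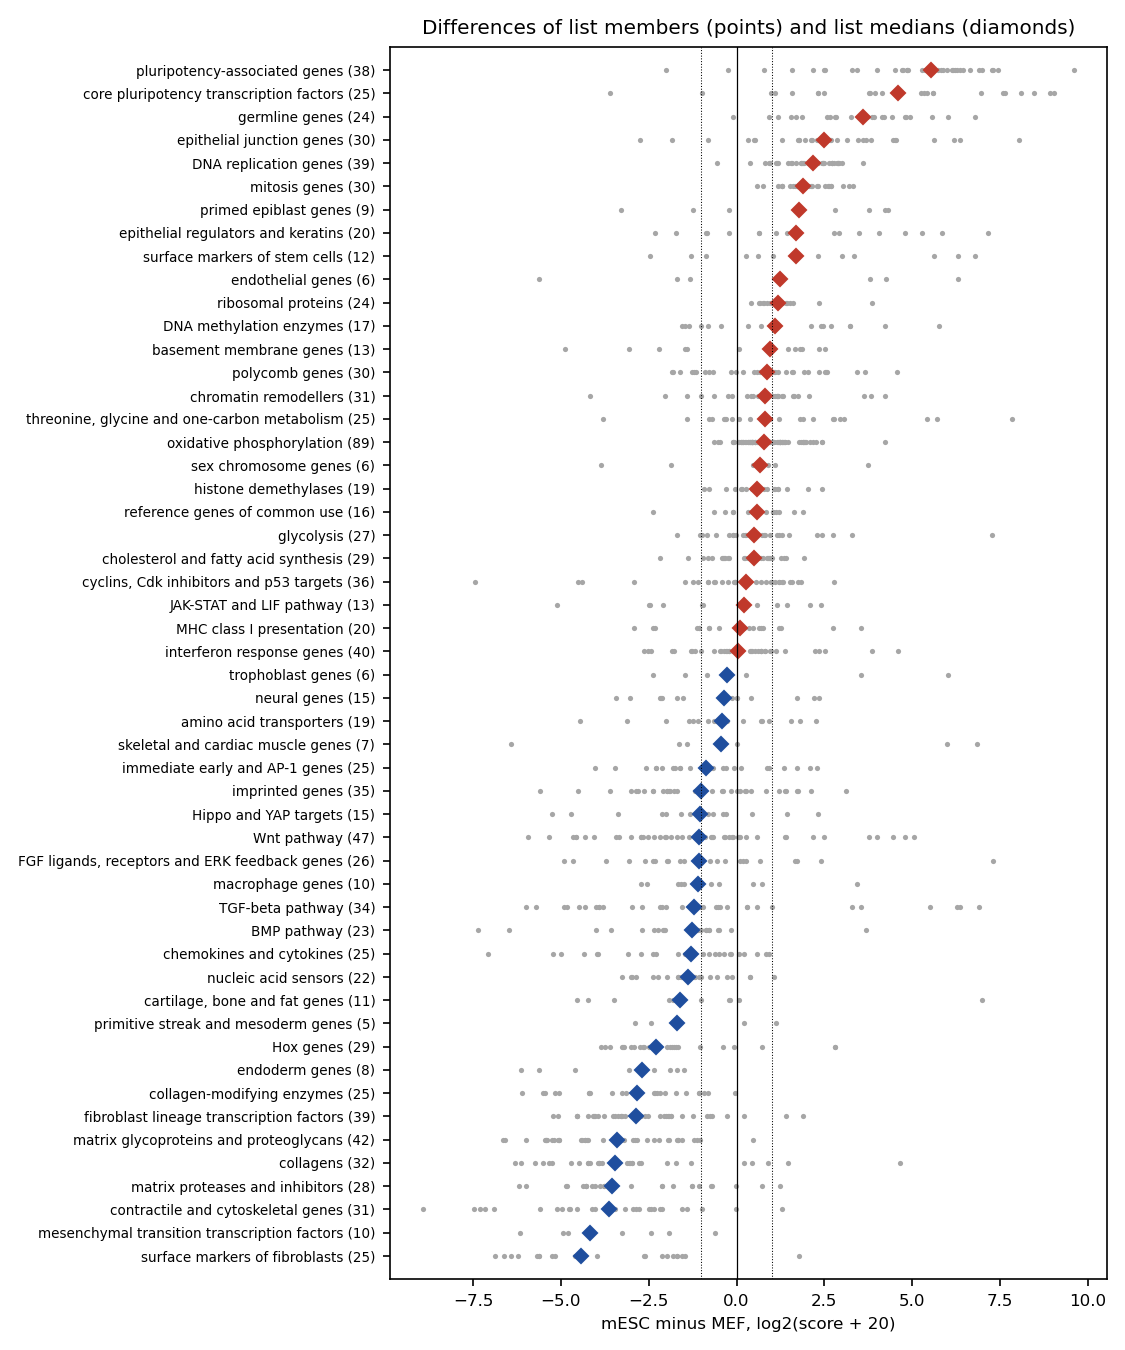
Differences of log2(score + 20), mESC minus MEF, for the members (grey points) and median (diamond, red above 0 and blue below) of each list with at least 5 genes in the table, with list size in parentheses and dotted lines at 2-fold. The list of RNA regulators is not shown. Medians run from -4.43 for fibroblast surface markers to 5.53 for pluripotency-associated genes.

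Chromatin regulators leaned towards mESC, with marked exceptions inside each family. Of 17 DNA methylation genes, all in the table, 9 were higher in mESC, all 9 also against every GFP library, and 4 were higher in MEF, 1 of them against every GFP library. Dnmt3b, a de novo methyltransferase of the early embryo, scored 1590 in mESC and 66 in MEF, and its catalytically inactive partner Dnmt3l scored 107 and 3. Dnmt3a, the other de novo enzyme, scored 1487 and 907 and did not reach 2-fold. The maintenance pair of Dnmt1 and Uhrf1 scored 7031 against 1608 and 7026 against 1072. Among the dioxygenases that oxidize methylcytosine, Tet1 scored 7047 in mESC, 109 in MEF and 38 to 56 in the GFP libraries. Tet2 scored 2690 against 268. Tet3 went the other way, with 552 in mESC, 1456 in MEF and 539 to 882 in the GFP libraries, none of which was counted as higher than mESC. Hells, a remodelling ATPase that DNA methylation needs, scored 4635 against 476. The methyl-CpG readers Mbd2 and Zbtb33 were higher in MEF, with 211 against 662 and 220 against 638, and Mbd4, a repair glycosylase, was higher in mESC, with 300 against 40.

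Polycomb genes differed subunit by subunit: of 30, all in the table, 15 were higher in mESC and 6 in MEF. The core of the H3K27 methyltransferase was on the mESC side, with Ezh2 at 1940 against 314 and Suz12 at 6173 against 1018. Its accessory subunits Jarid2 and Mtf2 scored 3728 against 276 and 5045 against 450. Among the chromobox readers, Cbx7 scored 1420 in mESC and 40 in MEF, while Cbx6 scored 1328 and 3196 and Cbx8 scored 31 and 160. The Polyhomeotic pair also divided, with Phc1 at 2724 against 462 and Phc2 at 400 against 1473. Of 31 remodelling and architectural genes, 15 were higher in mESC and 4 in MEF, of which 10 and 2 held against every GFP library. Smarca2 (Brm), the alternative ATPase of the BAF complex, scored 168 against 745, and the BAF subunit Smarcc2 scored 680 against 1832. Hmgb2 scored 8390 against 428, and Hmga2, another high-mobility-group protein, scored 345 against 6552. Of 20 histone demethylases 19 were in the table, with 7 higher in mESC, none in MEF and 12 neither. Kdm3a and Kdm5b, at 3654 against 655 and 8039 against 1944, were among the 3 of the 7 that held against every GFP library.

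Germline genes shared the mESC library. Of 44 genes on this list only 24 were in the table, which holds genes with a score of at least 101 in at least 1 library, so a count of those 24 says little about the list as a whole. Of the 24, 21 were higher in mESC and none in MEF. Tfap2c, a factor of primordial germ cells and trophoblast, scored 1292 in mESC and was listed at 0 in MEF. Hormad1 and Rec8, proteins of the meiotic chromosome axis, scored 548 and 540 in mESC, both listed at 0 in MEF. Tdrd12, of the small-RNA pathway that silences transposons, scored 650 against 2. Zscan4f, the only 1 of 17 genes of the 2-cell stage list in the table, scored 156 in mESC, 1 in MEF and 0 to 44 in the GFP libraries.

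Imprinted genes, expressed from 1 parental copy, were mostly on the fibroblast side. Of 42, 35 were in the table, 18 were higher in MEF and 7 in mESC, and 11 and 5 of these held against every GFP library. Dlk1, a Notch-related growth regulator, scored 10 in mESC and 1442 in MEF. Cdkn1c, a cell-cycle inhibitor, scored 17 against 824. Igf2, the fetal growth factor, scored 3025 in mESC, 21306 in MEF and 10946 to 15745 in the GFP libraries, so it was far from 0 in the stem cell library. Grb10, an adaptor that restrains growth, scored 1198 against 14740. On the other side, Usp29 scored 188 against 4 and Plagl1, a zinc-finger regulator, scored 4100 against 1208.

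Metabolic genes differed at particular steps more than as whole pathways. Of 26 genes of threonine, glycine and one-carbon metabolism 25 were in the table, with 11 higher in mESC and 2 in MEF, of which 6 and 1 held against every GFP library. Tdh, the threonine dehydrogenase on which mouse stem cells depend, scored 4563 in mESC, was listed at 0 in MEF and scored 0 to 2 in the GFP libraries. Gldc and Amt, parts of the glycine cleavage system that takes up its product, scored 1642 against 12 and 974 against 3. Aldh1l2, a mitochondrial folate enzyme, scored 176 in mESC and 2702 in MEF. Of 27 glycolysis genes, 9 were higher in mESC and 2 in MEF, beside 23.7% and 23.8% of all genes. Their median difference was 0.50, and 5 and 0 of these calls held against every GFP library. Slc2a3, a high-affinity glucose transporter, scored 18680 in mESC, 101 in MEF and 108 to 284 in the GFP libraries. Hk2, the inducible hexokinase, scored 4242 against 1507. Ldhb, the lactate dehydrogenase chain of oxidative tissues, scored 3352 against 328. These 3 genes were also higher in mESC than in every GFP library.

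Genes of oxidative phosphorylation differed by small steps. Of the 89 such genes in the table, 32 were higher in mESC and none in MEF, with a median difference of 0.79. Only 4 of the 32 held against every GFP library. The median score of the list was 958 in mESC, 474 in MEF and 688 to 902 in the GFP libraries, so MEF was the lowest of the 5 fibroblast libraries. Cox7a1, a subunit isoform of muscle, was among the 4, with 355 in mESC, 0 in MEF and 9 to 46 in the GFP libraries. Of the 24 ribosomal protein genes in the table, 16 were higher in mESC than in MEF, and 3 of the 16 held against every GFP library.

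Genes of mitosis and DNA replication were almost all higher in mESC than in MEF. Of 30 mitosis genes, 28 were higher in mESC and none in MEF, with a median difference of 1.90. Of 39 replication genes, 34 were higher in mESC and none in MEF, with a median difference of 2.18. Ccnb1 (cyclin B1) scored 4560 in mESC, 542 in MEF and 75 to 2030 in the GFP libraries. Cenpf, a kinetochore protein, scored 2599 in mESC, 266 in MEF and 59 to 169 in the GFP libraries. Mcm7, a subunit of the replicative helicase, scored 6346 in mESC, 822 in MEF and 430 to 1748 in the GFP libraries. Against every GFP library 11 of the 28 mitosis calls and 20 of the 34 replication calls held. The median score of the mitosis list was 987 in the day 1 library and 85 in the day 7 library, with MEF at 393.5 and mESC at 1684. On this median the fibroblast libraries differed among themselves by more than mESC differed from the day 1 library.

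Cyclins, Cdk inhibitors and p53 targets, taken as 1 list, did not share that direction. Of 36 such genes 11 were higher in mESC and 7 in MEF, beside 23.7% and 23.8% of all genes. Of these calls 3 and 5 held against every GFP library. Ccnd2 (cyclin D2) scored 314 in mESC, stood at the ceiling in MEF and scored 6994 to 11482 in the GFP libraries. Ccnd1 scored 1894 in mESC, 5292 in MEF and 7298 to 14717 in the GFP libraries. Cdkn2b (p15), which blocks the kinases of D cyclins, scored 92 against 832. Trp53 (p53) scored 4300 in mESC, 1430 in MEF and 910 to 1884 in the GFP libraries.

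Promoters of mitosis genes often carry the CHR element, TTTGAA, through which the DREAM and MuvB complexes time transcription to late cell cycle. It was found on either strand in 17 of the 24 mitosis genes with an entry (70.8%) and in 1177 of all 10187 promoters (11.6%). The promoters of Cenpf and Cenpa are shown because both genes were among the 6 largest differences of the list. Cenpa, the histone of centromeres, scored 1296 in mESC, 184 in MEF and 55 to 834 in the GFP libraries. The element, in capitals, begins 2 bases after the start in Cenpf, at chr1:189688037-189688336 on the minus strand, and 16 bases after it in Cenpa, at chr5:30666636-30666935 on the plus strand.
Cenpf: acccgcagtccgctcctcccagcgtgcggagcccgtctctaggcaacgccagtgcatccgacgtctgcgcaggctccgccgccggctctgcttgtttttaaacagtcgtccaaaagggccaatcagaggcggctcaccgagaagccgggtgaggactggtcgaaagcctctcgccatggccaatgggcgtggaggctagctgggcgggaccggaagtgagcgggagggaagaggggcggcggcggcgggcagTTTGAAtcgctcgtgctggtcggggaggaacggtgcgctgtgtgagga
Cenpa: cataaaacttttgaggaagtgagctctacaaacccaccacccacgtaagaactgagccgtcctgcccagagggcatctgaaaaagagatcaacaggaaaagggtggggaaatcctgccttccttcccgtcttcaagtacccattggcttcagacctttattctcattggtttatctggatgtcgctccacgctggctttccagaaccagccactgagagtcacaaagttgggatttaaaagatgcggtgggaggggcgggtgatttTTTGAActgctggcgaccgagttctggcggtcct

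**Figure D5:**
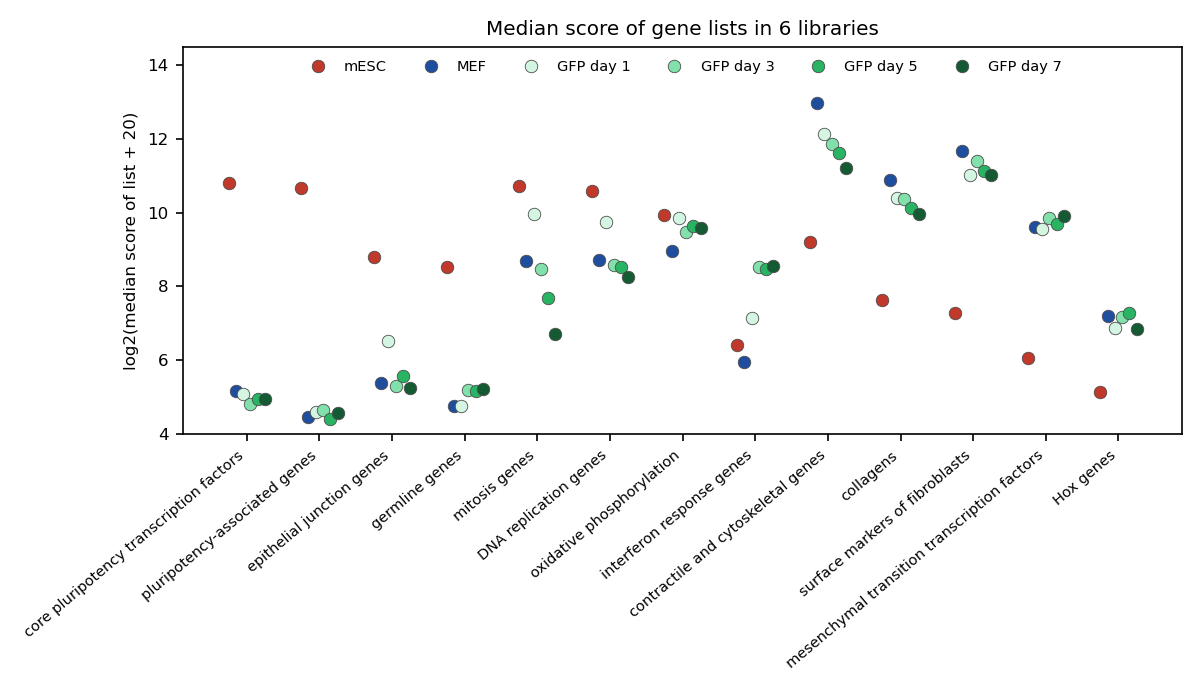
Median score of 13 gene lists in each of 6 libraries, as log2(median + 20): red mESC, blue MEF and 4 shades of green for the GFP libraries from day 1 (lightest) to day 7 (darkest). For pluripotency-associated genes mESC stands at 1600 and the fibroblasts at 5 or less, whereas for mitosis genes the fibroblasts spread from 85 to 987.

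Signalling pathways differed by ligand and receptor. In the TGF-beta family all 34 genes were in the table, with 7 higher in mESC and 19 in MEF. The Nodal branch was on the mESC side: Nodal scored 1533, its inhibitor Lefty2 scored 1644 and its coreceptor Tdgf1 (Cripto) scored 2387 in mESC, and all 3 were listed at 0 in MEF. The TGF-beta and activin ligands were on the MEF side. Tgfb3 scored 45 in mESC and 4128 in MEF, Tgfb2 scored 50 and 1540, and Inhba, the activin A chain, scored 17 and 1916. In the BMP pathway 23 of 25 genes were in the table, 14 higher in MEF and 1 in mESC, of which 7 and 0 held against every GFP library. The antagonist Grem1 scored 8 against 4560. Bmp4 scored 3 against 349, and Bmp7, the 1 gene on the mESC side, scored 264 against 2. Id1 and Id3, targets of BMP that hold back differentiation, scored 26 against 278 and 228 against 1236.

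FGF, Wnt and LIF pathway genes were also exchanged piece by piece. Of 32 FGF pathway genes 26 were in the table, and the 2 higher in mESC were Fgf4 and Etv5, an ETS factor downstream of FGF, with 4372 against 816. The 13 higher in MEF included Fgf7, a mesenchymal ligand, with 4 against 581, and the ERK feedback inhibitor Spry4, with 2 against 648. Of 56 Wnt genes 47 were in the table, 24 higher in MEF and 9 in mESC, of which 14 and 7 held against every GFP library. Wnt5a, a ligand of the non-canonical branch, scored 35 in mESC and 3354 in MEF. Notum, an extracellular Wnt deacylase, scored 844 against 11, and Tcf7 (TCF1) scored 1065 against 48. Sp5, a direct Wnt target, scored 253 in mESC and was listed at 0 in MEF. Of 15 LIF and JAK-STAT genes 13 were in the table, 4 higher on each side, beside 23.7% and 23.8% of all genes. Against every GFP library 2 of the mESC and 3 of the MEF calls held. The receptor chains Osmr and Il6st and the kinases Jak1 and Jak2 were on the MEF side, with Osmr at 54 against 2540 and Jak1 at 1160 against 5052. The target genes Pim1, Pim3 and Socs3 were on the mESC side, with Pim1 at 2352 against 425. Socs3 scored 958 in mESC, 342 in MEF and 380 to 1048 in the GFP libraries.

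Targets and parts of the Hippo pathway, which reads cell crowding and tension, were higher in MEF for 8 of 15 genes and in mESC for 2, of which 4 and 1 held against every GFP library. Ankrd1, a target of YAP, scored 8 in mESC, 710 in MEF and 52 to 128 in the GFP libraries. Ctgf, another target, scored 2918 in mESC, 12738 in MEF and 586 to 834 in the GFP libraries, so mESC stood between MEF and the other fibroblasts. Of the TEAD factors that carry YAP to DNA, Tead4 scored 683 against 120 and Tead2 scored 2416 against 880, while Tead3 scored 238 against 1015. The TEAD element GGAATG was found on either strand in 9 of the 12 promoters with an entry on this list (75%), against 1221 of all 10187 (12.0%). The Ankrd1 promoter, chr19:36119795-36120094 on the minus strand, is shown because it holds a pair of copies, in capitals, 210 and 123 bases before the start.
Ankrd1: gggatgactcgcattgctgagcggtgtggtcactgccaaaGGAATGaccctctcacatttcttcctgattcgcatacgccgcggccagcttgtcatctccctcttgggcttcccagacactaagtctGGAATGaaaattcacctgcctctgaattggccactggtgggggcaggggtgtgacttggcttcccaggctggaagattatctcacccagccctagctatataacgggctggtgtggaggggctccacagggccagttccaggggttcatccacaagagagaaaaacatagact

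Interferon response genes scored low in both libraries beside the GFP libraries of day 3 to 7. Of 42 interferon response genes 40 were in the table, 7 higher in mESC and 6 in MEF, beside 23.7% and 23.8% of all genes. Their median score was 65.5 in mESC, 42.0 in MEF and 122.5 to 356 in the GFP libraries. Of the 7 calls towards mESC 1 held against every GFP library: Ifitm1, a membrane protein of germ cells and antiviral defence, with 1090 in mESC, 26 in MEF and 22 to 46 in the GFP libraries. Receptors and sensors were on the MEF side, with 14 of 22 in the table higher there (23 listed) and 1 in mESC. Tlr4, the receptor for bacterial lipopolysaccharide, scored 6 against 228, Tmem173 (STING) scored 70 against 688 and Ifngr2 scored 116 against 1080. Of 21 genes of MHC class I presentation 20 were in the table, with 4 higher in mESC and 5 in MEF, beside 23.7% and 23.8% of all genes. Of these calls 2 and 3 held against every GFP library. B2m, the shared light chain, scored 352 against 1934. The heavy chains H2-Q4 and H2-Q6 scored 996 against 132 and 398 against 16, though reads of such near-identical genes can be assigned to the wrong copy. Of 30 chemokines and cytokines 25 were in the table, 13 higher in MEF, 8 of them against every GFP library, and none in mESC. Cxcl12, the ligand of CXCR4, scored 20 in mESC, 5437 in MEF and 1130 to 3148 in the GFP libraries.

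Genes of other lineages marked both libraries in places. Of 14 primed epiblast genes 9 were in the table, 5 higher in mESC and 2 in MEF, beside 23.7% and 23.8% of all genes. Differences on that list ran from -3.29 to 4.33. Otx2, a factor of primed epiblast and forebrain, scored 120 in mESC and was listed at 0 in all fibroblast libraries. Foxd3 scored 319 against 5 and Zic2 scored 783 against 20. Of 16 endoderm genes 8 were in the table, 7 higher in MEF and none in mESC. Gata6, a factor of primitive endoderm, scored 20 in mESC and 128 in MEF. Of 18 muscle genes 7 were in the table, 2 higher in mESC and 2 in MEF. Of 12 endothelial genes 6 were in the table, 3 higher on each side. Of 16 macrophage genes 10 were in the table, 1 higher in mESC and 5 in MEF. These counts cover only genes that passed the minimum score of the table and say little about the lists as wholes. A few genes named for differentiated tissue were high in mESC only among the 6 libraries: Ttn, the giant sarcomere protein, scored 3644 in mESC, 12 in MEF and 10 to 20 in the GFP libraries. Mylpf, a fast skeletal myosin light chain, scored 1378 against 2, and Vwf, a clotting factor of endothelium, scored 1190 against 43. Other muscle genes went the opposite way: Acta1 scored 3 in mESC and 1954 in MEF, and Des scored 168 and 476. Laptm5, a lysosomal protein of blood cells, scored 1556 against 126. In MEF, Flt1, a receptor for VEGF, scored 2168 beside 24 in mESC and 74 to 226 in the GFP libraries, and Csf1r, the macrophage receptor, scored 190 beside 12 in mESC and 4 to 52 in the GFP libraries.

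Of 9 genes that mark the sex chromosomes 6 were in the table, 2 higher in mESC and 2 in MEF, beside 23.7% and 23.8% of all genes. Xist, the RNA that silences an X chromosome in female cells, scored 207 in mESC, 3292 in MEF and 218 to 933 in the GFP libraries. The Y-linked genes Eif2s3y and Kdm5d scored 874 and 76 in mESC and 396 and 330 in MEF. Both Xist and Y-linked genes were thus detected in both libraries, and whether embryos of both sexes were pooled is not given in the labels.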

How the data were processed

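RNA was extracted with Trizol and made into TruSeq libraries, per the labels' protocols, and the labels name no read depth. The authors' deposited table gives 1 quantile-normalized score per gene and library, rounded to whole numbers, and every gene in it scores at least 101 in at least 1 of the 22 libraries. The submitters' processing notes name RSEM 1.1.21 and mm9 for mESC and MEF and RSEM 1.2.4 and mm10 for the GFP libraries. In each library the 10 highest genes share 58542, the next 10 score 26683 to 26759 and the 10 after those 21282 to 21356, so order among the highest genes is partly lost. The deposited expected counts of the other 20 libraries were used only to read the scale: a score of 45 to 55 matched a median of 19 to 95 expected counts, and depth sets the precision of low scores. No such counts were used for mESC or MEF, so no interval is given.

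Scores were compared as log2(score + 20), mESC minus MEF, with calls at 2-fold and a score of at least 50 (Python 3.11.15, pandas 2.3.3, numpy 2.4.6, matplotlib 3.10.9). With 1 library a group no p-value was computed. The call rule was tested on simulated data. Alternatives were pseudocounts of 1 and 100, no minimum score, a minimum at the table median, centring, a 4-fold limit and each GFP library in place of MEF. Genes named are the 20 largest differences each way, up to 6 per list each way, up to 3 against a list's majority, every core pluripotency, mesenchymal, DNA methylation and Hox gene, some preset genes and the cell type markers, and the text gives a selection of them; a few genes the rule selects are not reported here. The members and 55 lists were chosen with earlier results of these data known. Of the table's identifiers 12857 were in GENCODE M21, and 76.7% had the same coordinates within 10 bases, so the table follows GRCm38. Promoters were matched by identifier or symbol, and 9090 of the 10187 lay within 1000 bases of the start in the table.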

Additional observations from a re-analysis of the deposited data

How the results depend on the processing

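With neither library replicated, these settings show only how the counts depend on choices made on the same 2 libraries. The count of genes higher in mESC, 3053, was 2045 to 3271 under every setting but the 4-fold limit, which left 1308. The count higher in MEF, 3069, was 2317 to 3313 under the other settings, but 1956 with a minimum score at the table median and 1582 at 4-fold. With a GFP library in place of MEF, 2162 to 2533 of the genes higher in mESC and 2291 to 2505 of those higher in MEF were counted again. Over the 222 genes the text names, differences changed sign only under that replacement: 15 of 1554 recomputed values, over 7 genes, where the main difference was counted as 2-fold, and 1 value each for Tcf4 (0.48) and Hoxd9 (0.016), on day 1, where it was not. On days 1, 3, 5 and 7, Cdh3 gave 0.97, 0.077, 1.30 and 1.76 and Ctgf gave 1.97, 2.17, 1.78 and 2.28. On days 3, 5 and 7, Col18a1 gave -1.09, -1.15 and -1.79. Single reversals were Csf1r at 0.41 on day 5, Osr2 at -0.14 on day 3, Socs3 at -0.13 on day 7 and Tet3 at 0.033 on day 1. The median of the macrophage list gave 0.017 on day 5, the 1 sign change among list medians past 2-fold. Among smaller list medians 9 changed sign, in 23 values, 22 under that replacement and 1, interferon response genes, under centring (-0.0014). The cause was not tested. Scores near 50 rest on few reads, and differences at the ceiling have no known size. Over 5 equal classes of transcript GC content the median difference ran from -0.04 to 0.11. No paired analysis was possible because each group is 1 library.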

Other observations

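Immediate early and AP-1 genes divided by family member. Of 25, all in the table, 11 were higher in MEF and 4 in mESC, and 4 of the 11 and all 4 of the mESC calls held against every GFP library. Fos and Fosb, which respond to growth signals within minutes, scored 1018 and 400 in mESC and 292 and 79 in MEF, with 34 to 79 and 22 to 48 in the GFP libraries. Their relatives Fosl1 and Fosl2, which persist in mesenchymal cells, scored 8 and 192 in mESC and 290 and 3474 in MEF. Cebpb, a factor of inflammation and fat differentiation, scored 42 against 353. Of 33 table rows for 32 RNA-binding regulators, 15 were higher in mESC and 4 in MEF. The nucleolar proteins Ncl and Dkc1 scored 58542 and 3500 in mESC and 6021 and 312 in MEF, above every GFP library. The splicing factors Mbnl1 and Celf2, which drive differentiated splice patterns, scored 369 and 177 in mESC and 3610 and 1186 in MEF.

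Of 19 amino acid transporters 3 were higher in mESC, 6 in MEF and 10 neither, beside 23.7% and 23.8% of all genes. Slc7a3, which carries arginine and lysine, and the glutamine carrier Slc1a5 scored 956 and 1960 in mESC against 310 and 545 in MEF. Slc7a11, the cystine carrier of glutathione synthesis, scored 73 against 352. Of 29 cholesterol and fatty acid genes 5 were higher in mESC and 2 in MEF, below the shares of all genes. Elovl6, a fatty acid elongase, scored 4348 against 1141 and was the 1 of those 5 that held against every GFP library. In the whole table, 79 genes were listed at 0 in MEF with a mESC score above the table median, and 13 genes showed the reverse. The mESC score was the highest of all 22 libraries for 2213 of the 3053 genes higher in mESC, and the MEF score was the highest for 641 of the 3069 genes higher in MEF, with ties counted as highest. Because mESC is the only stem cell library and MEF stands beside other fibroblast libraries, these counts cannot be compared with each other.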
